A study of Rattus norvegicus with 8 samples.

Results

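The genes described here handle iron and heme: Hmox1, Fth1, Ftl1, Tfrc, Slc11a1, Slc40a1, Cp and Tf. They were chosen by symbol, as a list of 8 of the 32623 genes in the files. Earlier results of these data were known when the list was chosen. They were followed in spinal cord cells of 8 rat single-cell RNA libraries, first by cell type and then by the severity of injury.

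Heme comes mainly from the haemoglobin of red blood cells, and bleeding into the cord after injury brings it to phagocytes. Heme oxygenase 1 (Hmox1) opens the heme ring and frees its iron. The iron is then stored inside ferritin, a shell of heavy chains (Fth1), which oxidise iron, and light chains (Ftl1), which help the iron core to form, or it leaves the cell through ferroportin (Slc40a1), the known iron exporter of the cell membrane. Ceruloplasmin (Cp) oxidises the exported iron, transferrin (Tf) carries it in fluid, and the transferrin receptor (Tfrc) takes it up again. Slc11a1 (Nramp1) moves metal ions out of the phagosome of macrophages and neutrophils. Iron regulatory proteins bind the messages of the ferritin chains, ferroportin and the transferrin receptor, and in the central nervous system oligodendrocytes are known as iron-rich cells that make transferrin.

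The cells came from female Wistar rats aged 8 weeks, killed on day 7 after surgery. In the mild, moderate and severe groups a weight was dropped on the exposed cord at the level of the ninth thoracic vertebra, from the lowest, the middle and the highest of the heights used, and in the sham group the rats had laminectomy alone. There were 2 libraries per group, made with a droplet kit that reads the 3′ end of each message. The study speaks of as many sequenced cords as there are libraries, but the labels do not say whether a library is 1 animal, so that p-values measure the spread between these libraries.

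Of 68658 deposited cells, 55455 were kept, 2336 to 10016 per library, with a median of 2745 to 10836 unique molecular identifiers (UMIs, each standing for 1 captured message) per kept cell. The libraries held 31482153 to 131045446 UMIs before this selection. Cells were sorted into types by lists of marker genes, and 45513 cells received a type while 9942 did not. Within macrophages/microglia, cells with more of the macrophage markers (such as Gpnmb, Spp1 and Ms4a7) are called macrophage-side cells and those with more of the microglial markers (such as P2ry12 and Tmem119) microglia-side cells. The sides are named by these markers only, and the origin of the cells was not tested. Astrocytes and neurons were few (83 and 68 cells), so that most of the tissue's own cells are represented by glia of the oligodendrocyte line and by microglia.

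Levels are the UMIs of a gene per 1000000 UMIs of all genes (CPM), after summing all cells of 1 type in 1 library, for sums of at least 20 cells. Since the kit counts 1 tag per message, they were not divided by gene length. The fits also rescale the sums against each other by most of their genes (TMM scaling), which these levels do not. Log2 differences of the fits can therefore differ from the printed levels in size and order. For several genes the libraries of some groups are said to lie above or below others. The share of all genes that did so is given only for Ftl1 and Tfrc. Elsewhere such an order is a description.

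The sham libraries stood apart from each other. Sham 1 held 4193 neutrophils and sham 2 held 1. Of the gated macrophages/microglia, 297 of 592 in sham 1 and 234 of 2047 in sham 2 lay on the macrophage side, against 3389 of 4022 and 3502 of 4597 in mild, 5398 of 7234 and 3397 of 3544 in moderate, and 935 of 1069 and 2611 of 3506 in severe. Comparisons of whole macrophages/microglia with sham therefore also compare these mixtures, and the fits on each side were run beside them. Within the macrophage side, summed macrophage markers were 14755 and 13243 CPM in sham and 28790 to 40472 CPM in the injured libraries. Contrasts with sham on that side therefore also compare cells that differ in these markers. Summed neutrophil markers reached 10152 CPM in the macrophages/microglia of sham 1, against 224 to 2224 CPM in the other 7 libraries. Severe 2 held 894 of the 1067 erythroid cells. Of 68095 different barcodes, 555 were found in at least 2 libraries.

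The UMIs of the 8 genes were spread differently over the cell types. Hmox1 and Slc11a1 belonged to the macrophages/microglia, which held 95.1% of the 449773 Hmox1 UMIs and 94.4% of the 33892 Slc11a1 UMIs of all kept cells. Both ferritin chains were highest in macrophage-side cells and neutrophils, with 87.3% of the 3654235 Ftl1 UMIs and 76.2% of the 9059600 Fth1 UMIs in macrophages/microglia. Oligodendrocytes held 86.6% of the 1060862 Tf UMIs. The rarer messages were spread more widely: macrophages/microglia held 72.7% of the 13919 Tfrc UMIs, 62.9% of the 12770 Cp UMIs and 46.7% of the 3078 Slc40a1 UMIs. Macrophages/microglia also held most of the UMIs of all genes, a share that is not given here. A large share of a gene's UMIs is therefore not by itself a sign of enrichment in these cells. Levels in CPM take the UMIs of all genes into account. Among the 11 types of the fit the highest mean levels lay in endothelial cells (Tfrc), endothelial cells and neutrophils (Slc40a1) and fibroblasts (Cp).

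**Figure D1:**
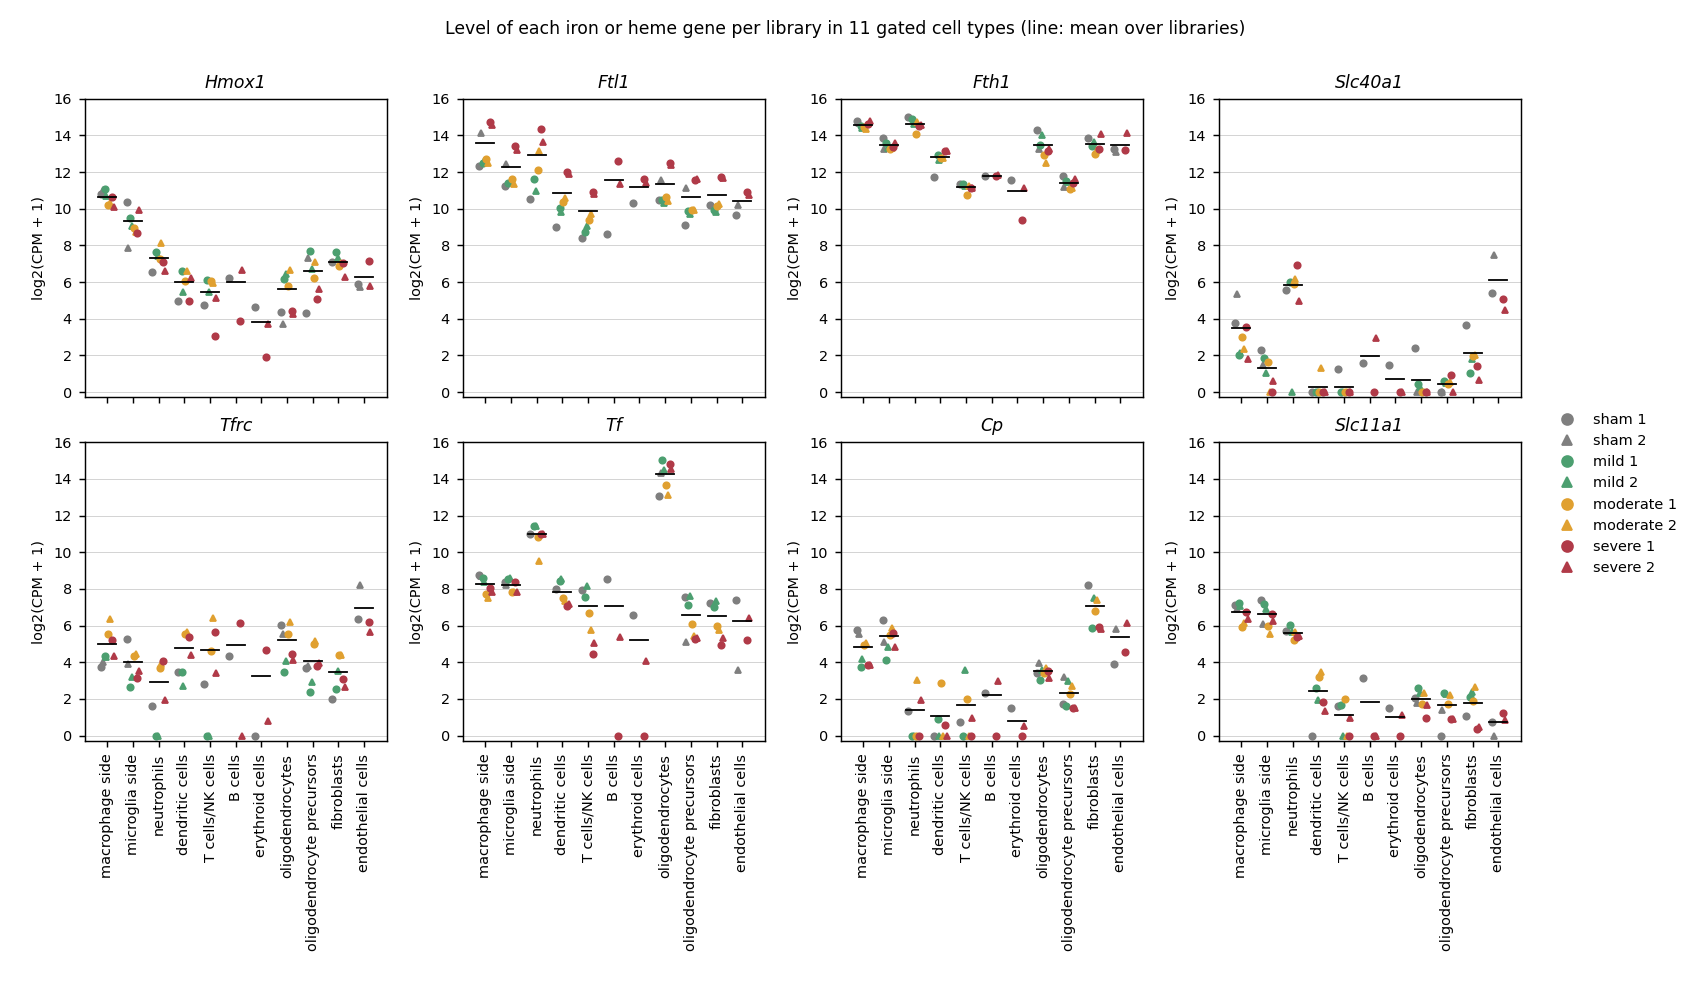
Level of each of the 8 genes as log2(CPM + 1) in 11 cell types, with 1 point per library and a line at the mean. Tf is highest in oligodendrocytes (mean 19948 CPM), Hmox1 in macrophage-side cells (mean 1612 CPM) and Cp in fibroblasts (mean 134 CPM), while Fth1 is at least 659 CPM in each of these sums.

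In 1 fit over 70 sums of library and type, each of 11 types was compared with the mean of the other 10, with the library as a block. Of 88 tests of the 8 genes, 60 passed (26 higher and 34 lower) against 43.6% of all tests over 12523 genes. Macrophage-side cells had 7 of the 8 genes higher (42.1% of all genes were higher there), and their median log2 difference was 2.10 against 0.37 over all genes. Microglia-side cells had 5 higher (35.7% of all genes), and the medians were 0.70 and 0.28. Oligodendrocyte precursors had all 8 genes lower (16.4% of all genes were lower), T cells/NK cells 7 (16.5%), dendritic cells 4 (11.9%) and B cells 3 (12.6%). Neutrophils had 5 genes higher and 2 lower (52.0% of all genes passed), oligodendrocytes 2 and 3 (59.1%), endothelial cells 3 and 3 (33.1%), and fibroblasts 2 and 4 (57.0%). In erythroid cells Ftl1 and Fth1 passed as higher (5.26% of all genes), by log2 differences of 3.11 and 1.36, but with scaling by library size alone these turned to -0.42 and -2.29.

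Hmox1, the enzyme that breaks down heme, was a gene of macrophage-side cells in every library. Its level there was 1799 and 2078 CPM in sham, 2191 and 1680.0 in mild, 1169.8 and 1252 in moderate, and 1618 and 1109 in severe. In microglia-side cells it was 1300.0 and 231 CPM in sham, 716 and 542 in mild, 499 and 424 in moderate, and 408 and 976 in severe. Macrophage-side cells were above microglia-side cells in 8 of 8 libraries, with means of 1612 ± 409 and 637 ± 349 CPM (SD, n = 8 libraries each). Against the other types Hmox1 was higher by a log2 difference of 4.33 (SE 0.21, adjusted p = 3.5e-28) on the macrophage side and 2.54 (SE 0.22, adjusted p = 3.4e-16) on the microglia side. The other 9 types of the fit had lower means, from 161 CPM in neutrophils to 12.9 CPM in erythroid cells. Outside the fit, astrocytes had 118 and 304 CPM in the moderate libraries and neurons 402 CPM in moderate 2 (22 cells), beside 424 CPM in microglia-side cells of that library. Among neutrophils, fibroblasts, oligodendrocyte precursors, endothelial cells, B cells, dendritic cells, oligodendrocytes and T cells/NK cells, no type differed from the next in this order by more than the SD of the difference over libraries.

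Shares of cells with a Hmox1 UMI were set beside those of T cells/NK cells, which are not known as main sources of heme oxygenase 1. After thinning every cell to 1000 UMIs, a Hmox1 UMI was found in 42.2% of macrophage-side cells, 28.4% of microglia-side cells, 11.6% of neutrophils, 4.88% of oligodendrocytes and 3.99% of T cells/NK cells (means over libraries). Before thinning the shares were 88.9% in macrophage-side cells, at a median of 11523 UMIs per cell, and 9.32% in T cells/NK cells, at a median of 3094 UMIs. The part of free RNA in these shares was not tested.

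Hmox1 passed in none of the group contrasts of macrophages/microglia. In whole macrophages/microglia its level was 1560.4 and 536 CPM in sham, 1966 and 1493 in mild, 1033 and 1241 in moderate, and 1490.5 and 1045 in severe. The low value is sham 2, the library whose gate held mostly microglia-side cells. Against sham, the log2 differences were 0.91 (SE 0.41, adjusted p = 0.18) in mild, 0.27 (SE 0.41, adjusted p = 0.74) in moderate and 0.85 (SE 0.41, adjusted p = 0.21) in severe. In macrophage-side cells alone, sham overlapped with mild in CPM and lay above all moderate and severe libraries. The log2 differences there were 0.05, -0.67 and -0.06, with adjusted p values of 0.94, 0.29 and 0.92.

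In oligodendrocytes, by contrast, the low Hmox1 level did differ between groups. It was 19.3 and 12 CPM in sham, 71.8 and 87.2 in mild, 54.9 and 98.4 in moderate, and 20.2 and 18 in severe. The 4 mild and moderate libraries lay above all 4 sham and severe libraries. The share of all genes with this order is not given here, so the order is a description. Hmox1 was higher in mild than in sham by a log2 difference of 2.20 (SE 0.33, adjusted p = 0.0079, where 8.62% of all genes passed) and in moderate than in sham by 1.95 (SE 0.33, adjusted p = 0.015, 4.31% of all genes). It was lower in severe than in mild by a log2 difference of -1.85 (SE 0.31, adjusted p = 0.014, 3.27% of all genes), and severe against sham was 0.35 (SE 0.35, adjusted p = 0.56, 1.44% of all genes). The mild and moderate contrasts share the sham libraries, and sham 2 rests on 36 oligodendrocytes. The mild call was lost without sham 1 (adjusted p = 0.0711) or mild 2 (0.0656), the moderate call without sham 1 (0.0876) or moderate 2 (0.137), and the call of severe against mild without mild 1 (0.0777), mild 2 (0.105) or severe 2 (0.0826).

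Markers of macrophages were present in the same oligodendrocyte sums. The summed macrophage markers there were 1370 and 604 CPM in sham, 1158 and 1114 in mild, 2163 and 2275 in moderate, and 529 and 796 in severe. The summed markers of the whole macrophage/microglia gate were 339 and 1549 CPM in sham, 381 and 561 in mild, 925 and 325 in moderate, and 47.2 and 195 in severe, with 2 of the 10 at 0 in severe 1. Both lists were lower in both severe libraries than in mild and moderate, as Hmox1 was. In sham, where Hmox1 was low too, both lists overlapped with mild. There the macrophage list lay below moderate, while sham 2 had the highest sum of the gate markers. The part of macrophage RNA in the Hmox1 differences was not tested. In T cells/NK cells Hmox1 was 25.7 CPM in sham 1, 67.6 and 43.6 in mild, 65.2 and 61.1 in moderate, and 7.47 and 34.4 in severe. Both severe libraries lay below the mild and moderate ones, but severe against mild did not pass there (log2 difference -1.27, SE 0.58, adjusted p = 0.26).

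**Figure D2:**
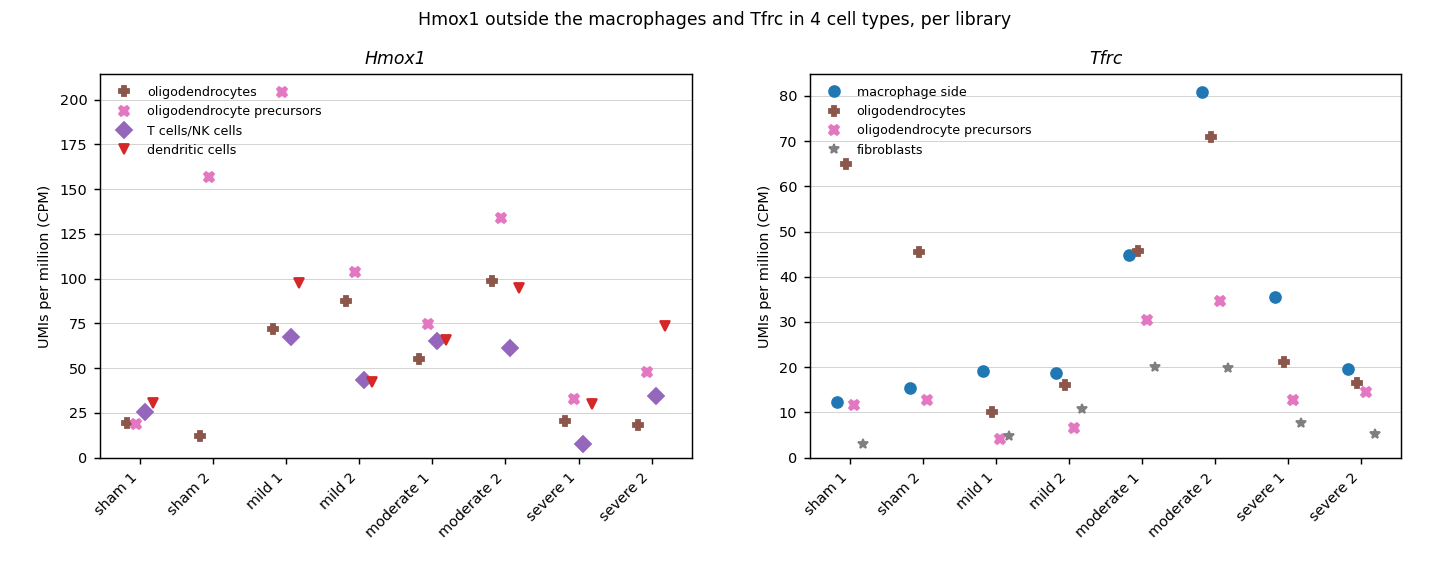
CPM of Hmox1 in oligodendrocytes, oligodendrocyte precursors, T cells/NK cells and dendritic cells, and of Tfrc in macrophage-side cells, oligodendrocytes, oligodendrocyte precursors and fibroblasts, with 1 point per library grouped by injury. Hmox1 in oligodendrocytes is 54.9 to 98.4 CPM in mild and moderate and 12 to 20.2 CPM in sham and severe, and Tfrc is highest in moderate in macrophage-side cells, precursors and fibroblasts.

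Of the 8 genes, the ferritin chains had the most UMIs. Fth1, the heavy chain, was 28702 and 26065 CPM in sham, 23249.7 and 21898 in mild, 22253 and 21254 in moderate, and 25166 and 28300.4 in severe on the macrophage side. In neutrophils it was 32873 CPM in sham 1, 30968 and 24894 in mild, 17378 and 26787 in moderate, and 23042 and 23992 in severe. These types did not differ from each other beyond the spread (means 24611 ± 2899 CPM, SD, n = 8, and 25705 ± 5168 CPM, SD, n = 7), and macrophage-side cells were above the next type, fibroblasts (11890 CPM), in 7 of 7 libraries. Microglia-side cells (11350 CPM) and oligodendrocytes (11333 CPM) lay at about that level too, and T cells/NK cells (2325 CPM) and erythroid cells (1974 CPM) were lowest. Against the other types Fth1 was higher by log2 differences of 2.08 on the macrophage side, 2.07 in neutrophils, 0.51 on the microglia side and 0.46 in fibroblasts (adjusted p = 9.2e-18, 1.1e-16, 0.019 and 0.038). The microglial call was lost without sham 2 (adjusted p = 0.0559), mild 1 (0.118) or moderate 1 (0.171), and the fibroblast call without any of the mild, moderate or severe libraries (from 0.0616 without mild 2 to 0.169 without severe 2; 0.128 without mild 1, 0.115 without moderate 1, 0.165 without moderate 2 and 0.112 without severe 1).

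Fth1 passed in none of the group contrasts run in these cell types, and its largest difference in macrophages/microglia was severe against sham (log2 difference 1.05, SE 0.31, adjusted p = 0.073). Its mean level in severe was 0.67 to 1.27 times that in mild over 8 cell types, with a median of 1.02.

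Ftl1, the light chain, had the same leading types but moved with the severe libraries. In macrophage-side cells it was 5131 and 17818 CPM in sham, 5880.2 and 6331 in mild, 6604 and 5783 in moderate, and 27065 and 24087 in severe. In neutrophils it was 1506 CPM in sham 1, 3131 and 1971 in mild, 4511 and 9006 in moderate, and 21262 and 12652 in severe. The highest library exceeded the lowest by far more than for Fth1, and on the macrophage side sham 2 lay between the severe and the other libraries. The means of macrophage-side cells (12337 ± 9185 CPM, SD, n = 8), neutrophils (7720 CPM) and microglia-side cells (4937 CPM) did not differ beyond this spread. With the library as a block Ftl1 was higher than in the other types on the macrophage side (log2 difference 2.59, SE 0.14, adjusted p = 3.2e-25), in neutrophils (1.69, SE 0.16, adjusted p = 1.7e-14) and on the microglia side (0.90, SE 0.16, adjusted p = 2.6e-06).

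The severe libraries carried more Ftl1 than the mild and moderate libraries in all 8 types that could be compared. In oligodendrocytes Ftl1 was 1407 and 3005 CPM in sham, 1413 and 1266 in mild, 1611 and 1393 in moderate, and 5857 and 5308 in severe. In T cells/NK cells, with the lowest mean of the types (924 CPM), it was 339 CPM in sham 1, 416 and 523 in mild, 661 and 847 in moderate, and 1897 and 1786 in severe. In both types, and in dendritic cells, fibroblasts, oligodendrocyte precursors, neutrophils and both sides of the macrophages/microglia, both severe libraries were above all 4 mild and moderate libraries. This held in 8 of 8 types for 0.416% of 7455 genes. The mean in severe was 3.43 to 6.65 times that in mild, with a median of 3.98. Against moderate it was 2.44 to 4.13 times, with a median of 3.03. The rise was not particular to severe. Uninjured sham 2 also lay above all mild and moderate libraries in each of these types where it held at least 20 cells. It had 17818 CPM on the macrophage side, 5665 on the microglia side, 3005 in oligodendrocytes and 2205 in precursors. Sham 1 had 5131, 2407, 1407 and 554 CPM there and did not.

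**Figure D3:**
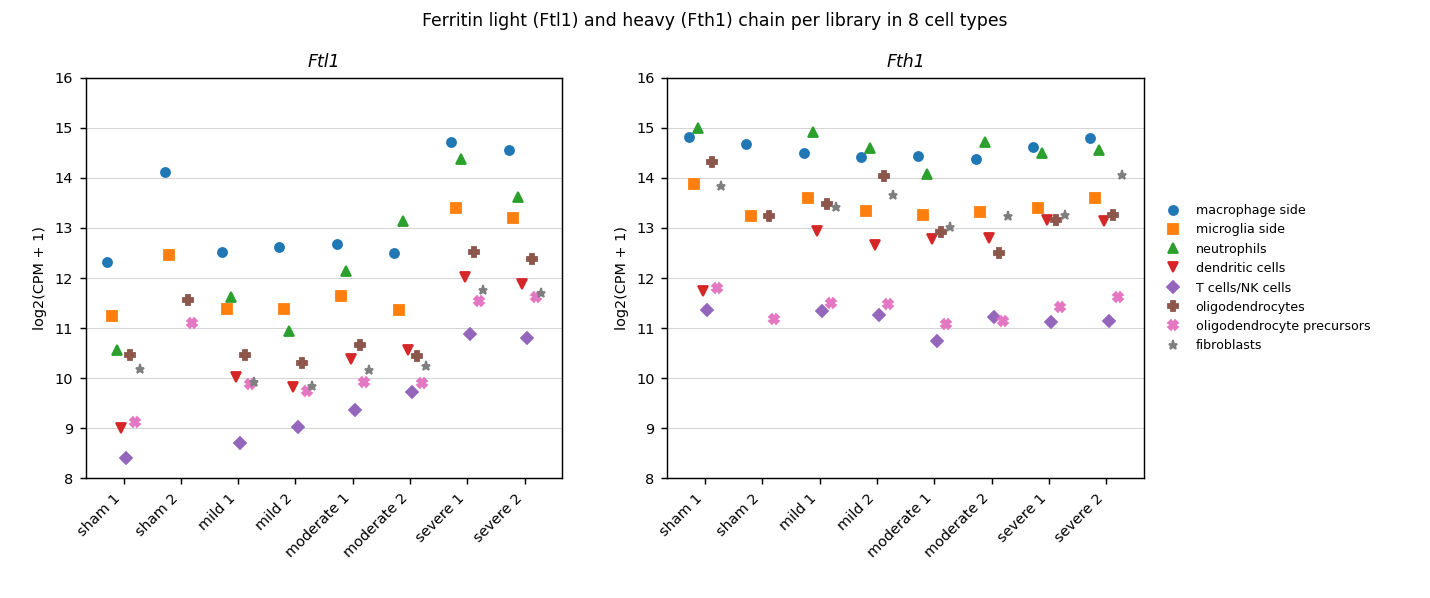
log2(CPM + 1) of Ftl1 and Fth1 in 8 cell types, with 1 point per library in the order sham, mild, moderate and severe. Ftl1 is higher in both severe libraries than in mild and moderate in every type (mean 3.43 to 6.65 times mild), while the mean of Fth1 in severe is 0.67 to 1.27 times mild.

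In macrophages/microglia Ftl1 was the gene of the 8 that passed in severe against sham (log2 difference 2.46, SE 0.44, adjusted p = 0.020, where 8.23% of all genes passed) and in severe against mild (2.45, SE 0.44, adjusted p = 0.037, 2.35% of all genes). The levels were 3809 and 7607 CPM in sham, 5355 and 5685 in mild, 5849.6 and 5679 in moderate, and 25491 and 20622 in severe. Severe against sham was lost without severe 1 (adjusted p = 0.0924) or severe 2 (0.0694). Severe against mild was lost without mild 1 (0.308), mild 2 (0.267), moderate 1 (0.0654), moderate 2 (0.0649), severe 1 (0.162) or severe 2 (0.106). Severe against mild on the macrophage side was 2.47 (SE 0.56, adjusted p = 0.043, 4.84% of all genes) and was lost without mild 1 (0.243), mild 2 (0.265), moderate 1 (0.0714), moderate 2 (0.0666), severe 1 (0.153) or severe 2 (0.113). Ftl1 in severe against sham was 1.57 there (SE 0.54, adjusted p = 0.13), and on the microglia side severe against mild was 2.21 (SE 0.49, adjusted p = 0.054).

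Over the macrophage side and the other 7 cell types, 18 of 119 tests of these genes passed in 17 contrasts (11 higher and 7 lower), against 3.98% of all tests, and 7 of the 18 were Ftl1 in severe against mild. The log2 difference was 2.21 in dendritic cells (adjusted p = 0.00054, 3.27% of all genes), 2.17 in T cells/NK cells (0.0017, 3.24%), 2.18 in fibroblasts (0.0035, 1.78%), 2.29 in oligodendrocytes (0.014), 3.13 in neutrophils (0.015, 2.67%) and 2.07 in oligodendrocyte precursors (0.030, 4.81%). The call held without any library in dendritic cells. It was lost in T cells/NK cells without mild 1 (0.087), in fibroblasts without mild 2 (0.0514), in neutrophils without mild 1 (0.475) or mild 2 (0.266), and in oligodendrocytes without mild 1 (0.11) or mild 2 (0.154). In oligodendrocyte precursors it was lost without mild 1 (0.166), mild 2 (0.256), severe 1 (0.103) or severe 2 (0.168).

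A small set of other genes moved with Ftl1 in the same libraries. In all 8 types, 12 genes were at least 2-fold higher in both severe than in both mild libraries at 50 CPM or more, and 3 were lower. Ftl1 is 1 of the 12, and the others include the ribosomal protein genes Rps19 and Rpl38, the mitochondrial gene Mt-atp8, Ybx1-ps3 and H2afj. Over the types, the log2 difference of severe minus mild was 1.78 to 2.73 for Ftl1. It was larger for Rps19 (3.98 to 5.19) and Mt-atp8 (3.605 to 4.813). For Ybx1-ps3 it was 2.02 to 3.25, for Rpl38 1.73 to 2.65 and for H2afj 1.515 to 2.328. The lower genes were Rps10, Mt-nd1 and Mt-co3. They were chosen after their values were seen. RefSeq names 14 pseudogenes and 7 like genes of Ftl1, and no such pseudogene is named in these files, so reads of near-identical copies could not be told apart from Ftl1. For Fth1 it names 5 pseudogenes and 1 like gene, and no such pseudogene is named in these files either. With 2 libraries per group, a difference between the severe injury and the severe libraries as prepared cannot be told apart.

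The balance of the messages of the chains also differed between cell types within a library. On the macrophage side there were 5.59 and 1.46 Fth1 UMIs per Ftl1 UMI in sham, 3.95 and 3.46 in mild, 3.37 and 3.68 in moderate, and 0.93 and 1.17 in severe. In oligodendrocytes there were 14.5 and 3.23 in sham, 8.10 and 13.2 in mild, 4.79 and 4.18 in moderate, and 1.56 and 1.84 in severe. Oligodendrocytes thus had more heavy-chain message per light-chain message in 8 of 8 libraries (log2 difference, macrophage side minus oligodendrocytes, -0.95 ± 0.55, SD, n = 8, exact two-sided sign-flip p = 0.0078, the smallest that 8 libraries can give). The chains as proteins were not measured. Between the macrophage and microglia sides the difference was small (-0.13 ± 0.11, lower on the macrophage side in 7 of 8 libraries, exact two-sided sign-flip p = 0.03125). It was at 0.0625 by the same exact test without sham 1, sham 2, mild 1, mild 2 or severe 2.

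Tfrc, the receptor that takes up iron-loaded transferrin, was highest in endothelial cells, the cells that line vessels. Its level there was 79.8 and 293 CPM in sham and 72.1 and 48.3 CPM in severe, and the other libraries held under 20 endothelial cells. These 4 values lay above oligodendrocytes of the same library in 4 of 4 cases (mean log2 difference 1.54 ± 0.97, SD, n = 4). Next came oligodendrocytes (36.4 CPM) and macrophage-side cells (30.8 CPM), which did not differ beyond their spread, and neutrophils were low (6.69 CPM). Against the other types Tfrc was higher by a log2 difference of 2.28 in endothelial cells (SE 0.34, adjusted p = 4.7e-08), 0.85 on the macrophage side (SE 0.24, adjusted p = 0.0021) and 0.63 in oligodendrocytes (SE 0.25, adjusted p = 0.027). The macrophage call was lost without mild 1 (0.0845) and the oligodendrocyte call without sham 1 (0.201) or moderate 2 (0.0506). After thinning to 1000 UMIs, 12% of endothelial cells, 3.05% of oligodendrocytes, 2.49% of macrophage-side cells and 1.05% of neutrophils held a Tfrc UMI.

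The reference promoters of the opposite ends of the transferrin route are shown here because Tf and Tfrc had different leading cell types. Both are the 250 bases before the gene's start in RefSeq on the GRCr8 assembly, read 5′ to 3′, and the table held 4 of the 8 genes (Slc40a1, Tfrc, Tf and Cp). In the Tfrc promoter (chr11:81690319-81690568, minus strand) capitals mark ACGTG, the core of a hypoxia response element, and in the Tf promoter (chr8:112695377-112695626, minus strand) they mark the TATA box letters TATAAA.

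Tfrc: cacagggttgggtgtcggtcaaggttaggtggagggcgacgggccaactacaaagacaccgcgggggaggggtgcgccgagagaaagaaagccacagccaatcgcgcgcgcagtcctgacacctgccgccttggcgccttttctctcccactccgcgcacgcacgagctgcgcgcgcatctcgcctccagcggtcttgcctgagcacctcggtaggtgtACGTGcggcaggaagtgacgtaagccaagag

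Tf: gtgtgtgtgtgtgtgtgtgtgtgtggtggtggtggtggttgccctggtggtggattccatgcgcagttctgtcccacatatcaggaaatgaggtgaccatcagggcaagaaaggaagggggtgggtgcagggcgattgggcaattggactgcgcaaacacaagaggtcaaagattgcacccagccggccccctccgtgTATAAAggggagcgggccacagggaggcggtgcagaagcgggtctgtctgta

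ACGTG was found once, 31 bases before the start of Tfrc, and 16.6% of 33469 promoters of this length hold it on either strand. TATAAA was found once, 52 bases before the start of Tf, and 12.9% of the promoters hold it. A match of these letters is a description of the sequence and not of a bound site.

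Across injury Tfrc was high in the moderate libraries. Its level on the macrophage side was 12.2 and 15.4 CPM in sham, 19.1 and 18.8 in mild, 44.8 and 80.9 in moderate, and 35.4 and 19.5 in severe. In oligodendrocyte precursors it was 11.7 and 12.8 CPM in sham, 4.17 and 6.63 in mild, 30.4 and 34.6 in moderate, and 12.6 and 14.5 in severe. In 6 of 8 types both moderate libraries were above all mild and severe libraries, which held in at least 6 of 8 types for 5.96% of 7455 genes. The mean in moderate was 3.32 times that in mild on the macrophage side, 2.99 times on the microglia side, 4.45 times in oligodendrocytes, 6.02 times in precursors, 5.99 times in dendritic cells and 2.56 times in fibroblasts. On the microglia side moderate 2 held only 7 Tfrc UMIs in 27 cells. Sham 1 (37.2 CPM) lay above both moderate libraries there (19.1 and 20.9 CPM). In dendritic cells moderate was 45.3 and 49.5 CPM (22 and 34 UMIs), close to severe 1 (41.1 CPM). In macrophages/microglia 0 of the 8 genes passed in moderate against sham by edgeR, where 2.11% of all genes passed. At an unadjusted p under 0.05 there were 3, and 2 passed by DESeq2. The shares of all genes for these 2 settings are not given here. Tfrc was nearest, with a log2 difference of 1.79 (SE 0.40, adjusted p = 0.064), and it was 2.19 on the macrophage side (SE 0.38, adjusted p = 0.066, where 0.0229% of all genes passed).

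In oligodendrocytes Tfrc was lower in the mild than in the sham libraries. Its level was 64.8 and 45.6 CPM in sham, 10.2 and 16 in mild, 45.6 and 70.9 in moderate, and 21.2 and 16.5 in severe. Both mild libraries and both severe libraries lay below both sham libraries, while moderate overlapped with sham. The log2 difference was -2.12 in mild against sham (SE 0.32, adjusted p = 0.0079, where 8.62% of all genes passed). It was -1.41 in severe against sham (SE 0.34, adjusted p = 0.071, 1.44% of all genes). These contrasts share the sham libraries, and sham 2 held 19 Tfrc UMIs in 36 oligodendrocytes. The mild call was lost without sham 1 (0.113), mild 1 (0.095) or mild 2 (0.0555). In oligodendrocyte precursors Tfrc was higher in severe than in mild by 1.61 (SE 0.33, adjusted p = 0.014), a call lost without mild 1 (0.143), mild 2 (0.0619) or severe 2 (0.221). In dendritic cells the same contrast was 1.96 (SE 0.50, adjusted p = 0.047), lost without mild 1 (0.381), mild 2 (0.229) or severe 1 (0.233).

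Slc11a1, the metal transporter of the phagosome, was shared by both sides of the macrophages/microglia. Its level on the macrophage side was 139 and 118 CPM in sham, 151 and 132 in mild, 58.5 and 69.2 in moderate, and 105 and 81.2 in severe. On the microglia side it was 169 and 67.9 CPM in sham, 143 and 121 in mild, 61.1 and 44.8 in moderate, and 98.5 and 74.8 in severe. The means of 107 ± 34.2 and 97.4 ± 43.3 CPM (SD, n = 8 each) did not differ beyond their spread. Neutrophils followed with 47.6 CPM and were above dendritic cells (4.35 CPM) in 7 of 7 libraries. Slc11a1 was higher than in the other types by log2 differences of 4.54 on the macrophage side, 4.08 on the microglia side and 3.45 in neutrophils (adjusted p = 4.5e-33, 1.8e-29 and 4.3e-20). Thinned to 1000 UMIs, 9.86%, 8.75% and 4.10% of these cells held a UMI, against 0.0707% of T cells/NK cells. Both moderate libraries were the lowest of the 8 on the macrophage side, but moderate against sham did not pass (log2 difference -0.99, SE 0.22, adjusted p = 0.10).

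Slc40a1, the iron exporter, was rare. The files hold it under 2 gene identifiers, of which 1 had 3078 UMIs in kept cells and the other 0. In endothelial cells it was 41.9 and 176 CPM in sham and 32.8 and 21.0 CPM in severe (63, 48, 25 and 27 UMIs). In neutrophils it was 46.6 CPM in sham 1, 63.4 and 0 in mild, 59.5 and 70.4 in moderate, and 123 and 30.6 in severe. Mild 2 had 0 of 41094 UMIs in neutrophils, which allows up to 73.0 CPM. Neutrophils were above endothelial cells in the 3 libraries that held both, but the types did not differ beyond their spread (67.9 ± 72.4 CPM, SD, n = 4, and 56.2 ± 37.8 CPM, SD, n = 7).

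Macrophages are the textbook site of ferroportin, but macrophage-side cells here had a mean of 10.3 ± 12.3 CPM (SD, n = 8) and microglia-side cells 1.49 CPM. Its level on the macrophage side was 12.6 and 39.5 CPM in sham, 3.06 and 3.44 in mild, 6.91 and 4.0 in moderate, and 10.8 and 2.47 in severe. Both sham libraries were the highest of the 8, but mild against sham missed the threshold (log2 difference -2.97, SE 0.74, adjusted p = 0.069). Against the other types Slc40a1 was higher by 5.74 in neutrophils (SE 0.31, adjusted p = 2e-25), 4.01 in endothelial cells (SE 0.39, adjusted p = 7.5e-14) and 2.11 on the macrophage side (SE 0.31, adjusted p = 3.1e-08). A UMI was found in 5.93% of neutrophils, 5.27% of endothelial cells, 0.825% of macrophage-side cells and 0.0389% of T cells/NK cells after thinning to 1000 UMIs. The lower calls of Slc40a1 rest on a handful of UMIs: that of T cells/NK cells was lost without moderate 1 (0.0565) or moderate 2 (1), that of dendritic cells without sham 1 (1), and those of oligodendrocytes and precursors without sham 1 or moderate 2 (1 in each case).

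Cp, the ferroxidase that works with the exporter, was highest in fibroblasts among the 11 types of the fit. In fibroblasts it was 301 CPM in sham 1, 57.4 and 182 in mild, 111 and 169 in moderate, and 59.3 and 55.3 in severe. The mean of 134 ± 91.0 CPM (SD, n = 7) was above that of microglia-side cells (41.6 CPM) in 7 of 7 libraries. Astrocytes, which are outside the fit since only the moderate libraries held 20 cells or more, had 277 and 95.3 CPM, above and below the fibroblasts of the same libraries. Against the other types Cp was higher by log2 differences of 4.30 in fibroblasts, 2.51 on the microglia side, 2.39 in endothelial cells and 2.08 on the macrophage side (adjusted p = 3.2e-28, 2.3e-14, 2.3e-08 and 8e-12).

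Cp was lower in mild injury than in sham in macrophages/microglia. Its level was 61.2 and 35.6 CPM in sham, 12.9 and 19.1 in mild, 33.1 and 33.9 in moderate, and 16.5 and 16.7 in severe. Both sham libraries lay above all 6 injured libraries, but sham 2 only narrowly above moderate. The sham gates also held other mixtures of the sides. The share of all genes with this order is not given here. In mild against sham it was the gene of the 8 that passed, by a log2 difference of -1.44 (SE 0.28, adjusted p = 0.031, where 6.83% of all genes passed). This was lost without mild 1 (0.283), mild 2 (0.134), moderate 1 or moderate 2 (0.0656 each), severe 1 (0.0555) or severe 2 (0.0544). Moderate and severe against sham did not pass (-0.41 and -0.99, adjusted p = 0.41 and 0.063).

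The macrophage side alone showed the same order. Cp was 52.1 and 46.2 CPM in sham, 12.1 and 17.2 in mild, 29.3 and 32.7 in moderate, and 13.6 and 13.1 in severe. Mild against sham was -1.68 (SE 0.25, adjusted p = 0.033, 1.94% of all genes) and severe against sham was -1.41 (SE 0.25, adjusted p = 0.026, 3.37% of all genes). The first was lost without mild 1 (0.277), mild 2 (0.177), moderate 1 (0.0649), moderate 2 (0.0625), severe 1 (0.0589) or severe 2 (0.0604), and the second without mild 2 (0.0503), severe 1 (0.133) or severe 2 (0.109). On the microglia side 0 of the 8 genes passed by edgeR in mild, moderate or severe against sham or in severe against mild. By the same test 0.475%, 0.131%, 1.21% and 1.7% of all genes passed. At an unadjusted p under 0.05 there were 2, 1, 2 and 2 of the 8 genes, and 1, 0, 1 and 1 passed by DESeq2. The shares of all genes for these settings are not given here, and over the alternatives up to 1035, 617, 1007 and 808 of all genes passed.

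**Figure D4:**
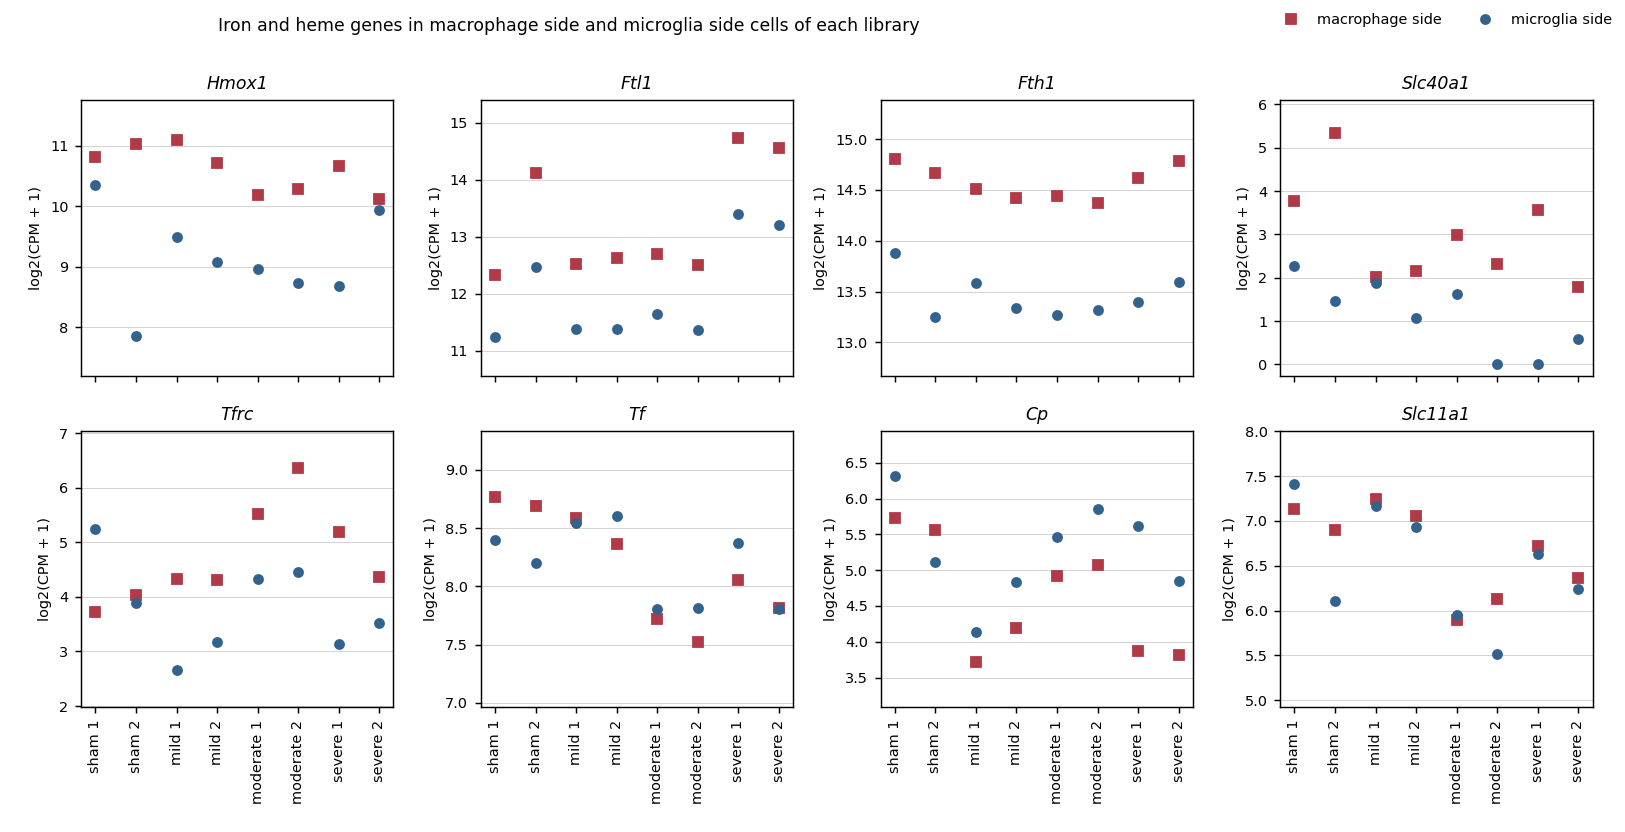
log2(CPM + 1) of the 8 genes in macrophage-side and microglia-side cells, with 1 point per library. Hmox1 is higher on the macrophage side in 8 of 8 libraries, Cp on the macrophage side is 52.1 and 46.2 CPM in sham and at most 32.7 CPM in the 6 injured libraries, and Ftl1 is highest in both severe libraries and in sham 2.

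Tf, the carrier of iron in fluid, was a gene of oligodendrocytes. In these cells it was 8634 and 20150.1 CPM in sham, 33991 and 22615 in mild, 13188 and 8797 in moderate, and 28530.3 and 23679 in severe. Against the other types it was higher by a log2 difference of 6.77 (SE 0.23, adjusted p = 1.6e-36), the largest of the 88. No group contrast passed in oligodendrocytes, and severe against mild was 0.11 (SE 0.49, adjusted p = 0.92). In CPM, without the scaling of the fit, the mean in severe was 0.92 times that in mild.

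Neutrophils were next. Their Tf level was 2010.2 CPM in sham 1, 2810.4 and 2749.8 in mild, 1809 and 729 in moderate, and 2069.7 and 2016 in severe. The mean of 2028 ± 692 CPM (SD, n = 7) was below oligodendrocytes in 7 of 7 libraries and above macrophage-side cells (305 CPM) in 7 of 7, and Tf passed as higher in neutrophils by a log2 difference of 3.31 (SE 0.23, adjusted p = 1.5e-20). Thinned to 1000 UMIs, 95.6% of oligodendrocytes, 64.1% of neutrophils, 25.4% of macrophage-side cells and 12.6% of T cells/NK cells held a Tf UMI, with 1188 shallower neutrophils left out. Oligodendrocyte markers were counted in the same sums. Per summed marker UMI there were 0.173 to 0.685 Tf UMIs in oligodendrocytes, 1.25 to 25.4 in neutrophils, 0.478 to 2.82 in macrophage-side cells, 0.336 to 1.17 in microglia-side cells, 0.177 to 0.456 in dendritic cells, 0.152 to 0.355 in fibroblasts, 0.095 to 0.298 in T cells/NK cells and 0.0141 to 0.0675 in oligodendrocyte precursors. In severe 1 neutrophils had 2070 CPM of Tf with 81.4 CPM of oligodendrocyte markers. The part of oligodendrocyte RNA in the Tf of other types was not tested.

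In T cells/NK cells, fibroblasts and dendritic cells Tf was lower in severe than in mild. In T cells/NK cells it was 246 CPM in sham 1, 188 and 283 in mild, 104 and 53.4 in moderate, and 21.2 and 32.5 in severe. The log2 difference of severe against mild was -2.86 in T cells/NK cells (SE 0.43, adjusted p = 0.0016), -1.76 in fibroblasts (SE 0.25, adjusted p = 0.022) and -1.17 in dendritic cells (SE 0.29, adjusted p = 0.040). It was -0.04 in neutrophils, -0.14 on the macrophage side, -0.18 on the microglia side and -1.80 in oligodendrocyte precursors, none of which passed (adjusted p = 0.98, 0.75, 0.84 and 0.058). The call in T cells/NK cells held when any 1 library was left out. The fibroblast call was lost without mild 1 (0.0661), mild 2 (0.124) or severe 1 (0.104), and the dendritic call without mild 1 (0.335), mild 2 (0.29), severe 1 (0.178) or severe 2 (0.0504). Oligodendrocyte markers moved with it: their sum in T cells/NK cells was 632 and 1068 CPM in mild and 223 and 337 CPM in severe, in fibroblasts 372 and 458 against 139 and 239 CPM, and in dendritic cells 892 and 830 against 438 and 354 CPM. Their part in these Tf differences was not tested.

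The sides of the macrophages/microglia were also compared directly in the fit over cell types. Of the 8 genes, 5 were higher on the macrophage side, where 17.0% of all genes were higher. They were Slc40a1 (log2 difference 2.53, SE 0.38), Hmox1 (1.64, SE 0.34), Ftl1 (1.54, SE 0.23), Fth1 (1.43, SE 0.25) and Tfrc (1.22, SE 0.32), with adjusted p values of 0.0021 or below. Slc11a1 (0.42, adjusted p = 0.13), Tf (0.29, adjusted p = 0.58) and Cp (-0.39, adjusted p = 0.25) did not pass. The median of the 8 genes was 1.33 against 0.06 over all genes.

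The wider pathway was read from a list of 65 genes in 6 roles, which includes the 8 genes above. Between the sides 55 of them could be tested, 24 higher and 3 lower on the macrophage side, with a median log2 difference of 0.48. Of all 12523 genes 17.0% were higher there and 3548 passed in either direction, with a median of 0.06. Lower genes were a smaller part of the list than of all genes. Genes that take up or break down heme stood out by count, with 8 of 10 higher and none lower, and a median of 1.75. Of iron storage genes 3 of 4 were higher, and of uptake and reduction genes 5 of 12 were higher and 2 lower. Of export and transport genes 2 of 4 were higher, and of regulators 2 of 7. Of heme synthesis and mitochondrial genes 4 of 18 were higher and 1 lower, which was near the share of all genes that were higher.

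The scavenger receptor for haemoglobin bound to haptoglobin, Cd163, was higher by 6.13 (SE 0.41) and haptoglobin itself, Hp, by 5.58 (SE 0.39). Cd163 was 95 and 45.8 CPM on the macrophage side in sham but 3.67 to 6.85 CPM in the injured libraries, and at most 2.99 CPM on the microglia side. On the macrophage side Hp was 118 and 6.01 CPM in sham and 89.4 and 117 in mild. It was 61.3 and 23.7 CPM in moderate and 61.5 and 62.8 in severe there. On the microglia side Hp reached 13.8 CPM in sham 1 and at most 1.70 CPM elsewhere. Summed neutrophil markers on the macrophage side were 16708 CPM in sham 1, 235 in sham 2 and 1173 to 2618 in the injured libraries. The part of neutrophil RNA in Hp was not tested. Biliverdin reductases, which act after Hmox1, followed with Blvra at 2.88 (SE 0.21) and Blvrb at 1.86 (SE 0.20). The heme transporter genes Flvcr2 (3.65, SE 0.40) and Slc48a1 (1.42, SE 0.22) were higher too. The ferroxidase gene Heph was higher by 4.63 (SE 0.48), and the iron reductase genes Steap3 and Cybrd1 by 2.07 (SE 0.32) and 1.29 (SE 0.25). Heph was a rare message, at 1.33 to 11.1 CPM on the macrophage side and at most 0.485 CPM on the microglia side. Lcn2, an iron-siderophore binder of neutrophil granules, was lower by -1.95 (SE 0.45). Its level on the microglia side was 117 CPM in sham 1, the library with summed neutrophil markers of 4891 CPM on that side, and at most 7.41 CPM elsewhere.

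**Figure D5:**
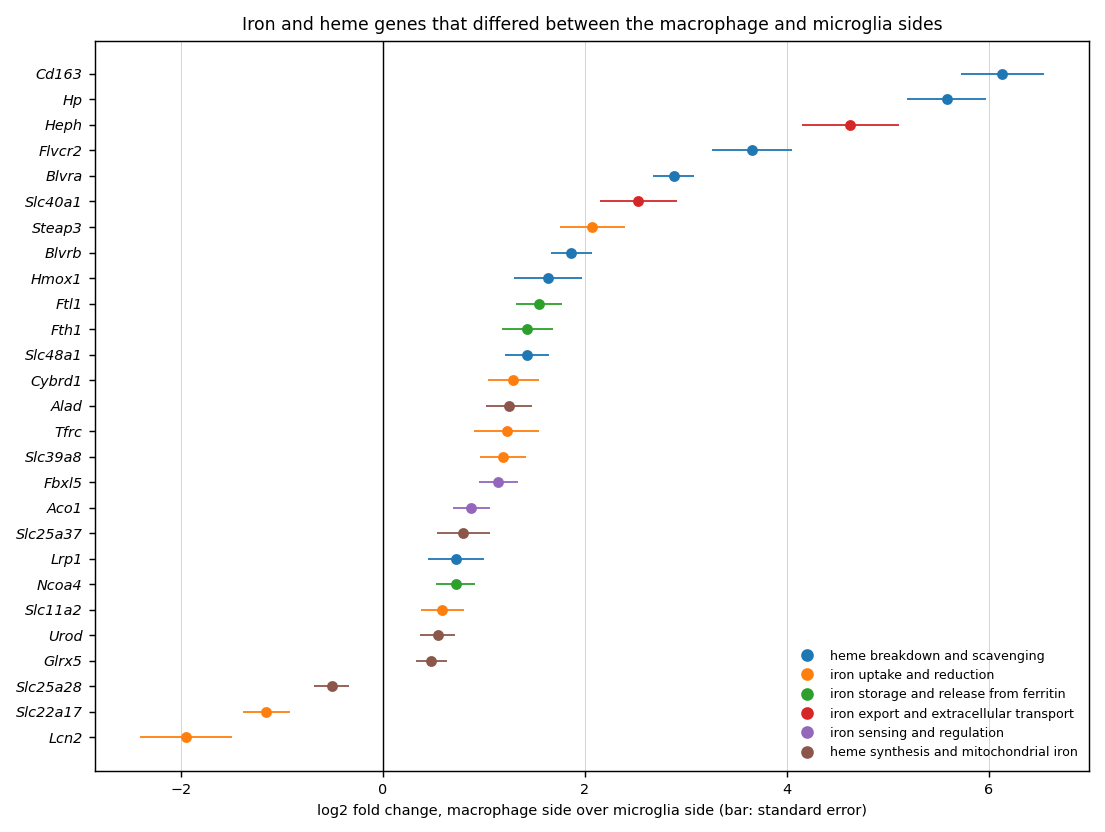
Log2 difference of macrophage-side minus microglia-side cells, with its SE, for the 27 pathway genes that passed, coloured by role. Cd163 (6.13), Hp (5.58) and Heph (4.63) lead, and Lcn2 (-1.95) is the lowest. Cd163 and Heph are at most 2.99 and 0.485 CPM on the microglia side.

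Across injury 57 of the 65 genes could be tested in macrophages/microglia. In mild against sham 7 were higher and 1 lower, in moderate 1 was higher, in severe 9 were higher, and in severe against mild 2 were higher, counts that include Cp (lower in mild) and Ftl1 (higher in both severe contrasts). Of all genes 6.83%, 2.11%, 8.23% and 2.35% passed in these contrasts, so that the counts in moderate and in severe against mild were near those of all genes. Heme breakdown and scavenging gave 4 of its 11 tested genes in mild and in severe, contrasts that share the sham libraries. Blvra was higher by 2.17 in mild and 2.35 in severe, Blvrb by 1.20 and 1.77, Slc48a1 by 1.58 and 1.65, and Flvcr2 by 2.87 and 3.46, with Flvcr2 at 3.49 in moderate. Blvra was 50.4 and 15.4 CPM in sham, 133 and 123 in mild, 79 and 80.7 in moderate, and 110.2 and 110.5 in severe. In these levels, without TMM scaling, severe lay below mild. Flvcr2 was 0.509 and 1.0 CPM in sham, 5.72 and 6.13 in mild, 7.70 and 11 in moderate, and 8.65 and 5.12 in severe. Both genes were lower in both sham libraries than in all 6 injured ones. Alad, an enzyme of heme synthesis, was higher by 1.68 in mild and 1.39 in severe. Steap3 was higher in mild (2.0) and severe (2.17), and Slc11a2 (1.68) and Glrx5 (0.94) in severe.

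Most of these calls were lost when 1 library was left out, also where that library was outside the contrast. Fewer libraries then estimate the spread, so that a lost call can also reflect lost power. In mild, Blvrb, Flvcr2, Slc48a1 and Alad were each lost without mild 1 or mild 2 (adjusted p from 0.129 to 0.234), Blvrb also without moderate 1 (0.0629) or moderate 2 (0.0626). Blvra in mild was lost without mild 1 (0.217), mild 2 (0.147), moderate 1 (0.0627), moderate 2 (0.0626), severe 1 (0.0526) or severe 2 (0.054), and Steap3 in mild without sham 2 (0.077), mild 1 (0.305), mild 2 (0.136), moderate 1 (0.0807), moderate 2 (0.0796), severe 1 (0.061) or severe 2 (0.0629). In moderate Flvcr2 was lost without mild 1 (0.0693), mild 2 (0.0691) or moderate 2 (0.145). In severe Flvcr2 held when any 1 library was left out, Blvra was lost without severe 1 (0.0779) or severe 2 (0.0744), Blvrb without severe 1 (0.0527), Slc48a1 without severe 1 (0.0693), and Alad without mild 1 (0.0608), mild 2 (0.0591), severe 1 (0.0908) or severe 2 (0.0887). Steap3 in severe was lost without sham 2 (0.0558), mild 1 (0.0581), mild 2 (0.0577), moderate 1 (0.0615), moderate 2 (0.0605), severe 1 (0.145) or severe 2 (0.065), Glrx5 without sham 1 (0.0579), mild 1 (0.103), mild 2 (0.103), moderate 1 (0.0779), moderate 2 (0.0781), severe 1 (0.157) or severe 2 (0.132), and Slc11a2 without sham 2 (0.0717), mild 1 (0.0778), mild 2 (0.0775), severe 1 (0.162) or severe 2 (0.0951).

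Within a side fewer of these genes passed in mild and severe against sham. On the macrophage side, of 57 tested genes, 3 were higher and 3 lower in mild, 1 was lower in moderate, 3 were higher and 2 lower in severe, and 3 were higher in severe against mild, where 1.94%, 0.0229%, 3.37% and 4.84% of all genes passed. The count in severe against mild was near that share. The lower genes were Cp, Cd163 and Heph in mild, Cd163 in moderate, and Cp and Cd163 in severe. The 3 higher in severe against mild were Ftl1, Bach1 and the erythroid heme synthesis gene Alas2. Blvra was higher there by 1.63 in mild, lost without mild 1 (0.277), mild 2 (0.177), moderate 1 (0.0649), moderate 2 (0.0635), severe 1 (0.0589) or severe 2 (0.0604), and by 1.83 in severe, lost without severe 2 (0.0624). Alad was higher by 1.67 in mild and 1.42 in severe, and Steap3 by 1.75 in severe, each of which was lost without any 1 of at least 6 libraries: mild 1, mild 2, moderate 1, moderate 2, severe 1 or severe 2 (adjusted p from 0.051 to 0.319), Alad in severe also without sham 2 (0.0584), and Steap3 without sham 1 (0.0813) or sham 2 (0.0647). Blvrb was 72.1 and 125 CPM in sham, 82.6 and 90.2 in mild, 78.8 and 88.5 in moderate, and 116 and 90.4 in severe there, with sham 2 the highest of the 8 libraries. Flvcr2 was 0.740 and 4.51 CPM in sham, 6.77 and 7.31 in mild, 9.70 and 11.5 in moderate, and 9.62 and 6.61 in severe, and its log2 differences against sham of 1.47, 2.02 and 2.06 did not pass (adjusted p = 0.17, 0.15 and 0.082). Steap3 was 9.62 and 7.14 CPM in sham and 15.4 to 30.8 CPM in the injured libraries. For both genes, as in whole macrophages/microglia for Flvcr2, the sham libraries lay below all 6 injured ones. On the microglia side 48 genes could be tested and only Bach1 passed, in severe against mild, where 1.7% of all genes passed.

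Bach1, the repressor of Hmox1 that heme inactivates, was higher in severe than in mild by 2.16 in macrophages/microglia (SE 0.40, adjusted p = 0.039) and 2.20 on the microglia side (SE 0.41, adjusted p = 0.022). In macrophages/microglia it was 14.6 and 9.82 CPM in sham, 3.60 and 4.61 in mild, 7.99 and 16.2 in moderate, and 11.4 and 16.3 in severe. Both mild libraries were the lowest. The first call was lost without mild 1 (0.334), mild 2 (0.244), severe 1 (0.101) or severe 2 (0.141), and the second without the same libraries (0.301, 0.175, 0.113 and 0.117). On the macrophage side the difference was 2.15 (adjusted p = 0.022), lost without mild 1 (0.196), mild 2 (0.146) or severe 2 (0.0961). Hmox1 did not pass in the same contrast (-0.06 and 0.46, adjusted p = 0.95 and 0.80).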

How the data were processed

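Droplet single-cell libraries of rat spinal cord were deposited as gene by cell tables of raw UMI counts, which the authors made with Cell Ranger (version 5.0.1 per the file headers) on Rnor_6.0, with Seurat also named in the submitters' processing notes. Cells with over 10% mitochondrial UMIs, or with UMIs or genes beyond 2 SD of their library's mean, were left out, and 7.7% of cells were removed as doublets by Scrublet score (scanpy 1.11.5). Each cell, scaled to 10000 counts, received the type whose markers (155 of 163 listed genes were measured, 14 types) scored highest, at a score of at least 0.2 and 0.1 above the next. Macrophages/microglia needed at least 1500 UMIs, and their sides were separated by a margin of 0.05. Of the kept cells 7083 lay within 0.05 of the margin and 5220 macrophages/microglia near the cuts between the sides.

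Raw counts were summed by library and type (at least 20 cells) and tested with edgeR 4.0.16 (quasi-likelihood test, TMM scaling, filterByExpr, Benjamini-Hochberg adjustment over all genes tested, threshold 0.05) in R 4.3.3, over all libraries of a type in 1 fit of the 4 groups, or over all types with the library as a block. Scripts were tested on simulated data with known changes. DESeq2 1.42.0, scaling by library size, no filter, the replicate number as a block, single libraries left out, no doublet removal, a mitochondrial limit of 20%, a stricter gate, only the groups compared, and at least 100 cells were tried as alternatives. Those for cell types other than macrophages/microglia and microglia were chosen after seeing the data. Leaving out 1 library leaves 1 in its group and fewer libraries to estimate the spread. A lost call can therefore also reflect lost power. The replicate numbers as labelled did not pair libraries alike in all groups. Deviations of same-numbered macrophage/microglia sums correlated by 0.0653 to 0.296 among sham, mild and severe, and by -0.362 to -0.222 with moderate. A batch shared across groups under other numbers was not tested. The members and gene lists were chosen with earlier results of these data known. The text names the 8 genes, pathway genes that passed in macrophages/microglia or microglia, the 10 with the largest difference between the sides, and the 3 genes most like each of the 8, apart from some that are not reported here. Of the 65 listed pathway genes 64 were found, and Pcbp1 was not analysed here. Intervals and limits cover counting error only.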

Additional observations from a re-analysis of the deposited data

How the results depend on the processing

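Of 1262 alternatives run for calls of the 8 genes, 1137 kept the direction and the side of the threshold, 123 kept the direction only and 2 reversed. With scaling by library size alone the erythroid log2 differences were -3.50 for Cp, -2.29 for Fth1, -0.42 for Ftl1, -3.00 for Hmox1, -2.08 for Slc11a1, -3.10 for Slc40a1, -3.36 for Tf and -2.55 for Tfrc, all turned from positive. With at least 100 cells Tf on the microglia side turned to -0.68 (adjusted p = 0.023).

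The counts of the 8 genes called in macrophages/microglia were 1 in mild, 0 in moderate and 1 in severe against sham, and 1 in severe against mild. No filter gave 2, 1, 3 and 1. DESeq2 gave 2 in moderate and 3 in severe, and library size alone 2 in severe. With only the groups compared there were 0 in mild and 0 in severe. Leaving out 1 library gave 0 to 2, 0 to 1, 0 to 3 and 0 to 1. On the microglia side, with 0 in each contrast, DESeq2 gave 1, 0, 1 and 1, no filter 2, 0, 1 and 1, library size 1 and only the groups compared 1 in severe against mild, and leaving out 1 library 0 to 2, 0 to 1, 0 to 2 and 0 to 1. In the other types 18 calls became 29 with DESeq2, 41 with no filter and 4 to 38 without 1 library. Calls over all genes under these settings are not given for the other types. A change in these genes alone therefore cannot be told apart there from a change in all genes. The 20 pathway calls in macrophages/microglia became 53 with DESeq2, 61 with no filter, 6 with only the groups compared and 5 to 41 without 1 library, and the 1 call on the microglia side became 7, 17, 3 and 0 to 26, and 2 with library size alone or the 20% mitochondrial limit. Calls over all genes in macrophages/microglia and on the microglia side also changed over the alternatives, with ranges given below. The causes were not tested. The 60 calls between types, the 5 between the sides and the 27 of the pathway list there stayed within 1.5 times.

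The replicate number was also used as a block, although the numbers did not pair the libraries alike in all groups. Macrophages/microglia then had 0 of the 8 genes in mild against sham and 0 in severe against mild. Cp in mild went to an adjusted p of 0.057, Ftl1 in severe against mild to 0.059 (0.051 on the macrophage side) and Tf in dendritic cells to 0.051.

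The difference in Fth1 per Ftl1 between the sides was -0.14 with at least 100 cells (exact sign-flip p = 0.0625) and -0.16 to -0.11 without 1 library. Over all genes, calls in macrophages/microglia ranged from 0 to 2455 in mild (908 as reported), 0 to 1782 in moderate (280), 91 to 2565 in severe against sham (1095) and 38 to 1425 in severe against mild (312), and on the microglia side from 0 to 1035 in mild (47), 0 to 617 in moderate (13), 13 to 1007 in severe (120) and 33 to 808 in severe against mild (168). Of 96 shares of cells with a UMI, 58 stayed within 1 SD at 500 UMIs and 38 moved. With 2 libraries per group and under 100 cells in several sums, small differences could not be detected.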

Other observations

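Within macrophage-side cells, Cd163, the receptor that takes up haemoglobin bound to haptoglobin, was lower in the injured libraries. It was 95 and 45.8 CPM in sham, 3.67 and 6.85 in mild, 5.23 and 4.61 in moderate, and 5.62 and 4.02 in severe, so that both sham libraries lay above all 6 injured ones. The log2 difference against sham, by edgeR over 13111 genes, was -3.66 in mild (SE 0.42, adjusted p = 0.027), -3.79 in moderate (SE 0.43, adjusted p = 0.047) and -3.40 in severe (SE 0.42, adjusted p = 0.0072), contrasts that share the sham libraries. The mild call was lost without mild 1 (0.263), mild 2 (0.177) or severe 2 (0.0563), the severe call without severe 2 (0.0662), and the moderate call without mild 1 (0.0822), mild 2 (0.0987), moderate 1 (0.0602), moderate 2 (0.411), severe 1 (0.109) or severe 2 (0.106). The sham values rest on 297 and 234 macrophage-side cells. Summed macrophage markers in these cells were 14755 and 13243 CPM, against 28790 to 40472 CPM in the injured libraries. The part of this difference between the cells in the Cd163 values was not tested. On the microglia side Cd163 was at most 2.99 CPM in any library.

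Heph, a ferroxidase, was 11.1 and 10.2 CPM in sham, 2.21 and 1.33 in mild, 5.06 and 3.60 in moderate, and 4.95 and 2.28 in severe on the macrophage side, with a log2 difference of -2.53 in mild against sham (SE 0.46, adjusted p = 0.043), lost without sham 1 (0.0616), mild 1 (0.263), mild 2 (0.215), moderate 1 (0.0748), moderate 2 (0.0694), severe 1 (0.0589) or severe 2 (0.0604). Alas2, the erythroid enzyme of heme synthesis, was chosen after its values were seen: it was higher in severe than in mild on the macrophage side by 5.91 (SE 1.07, adjusted p = 0.021), lost without mild 1 (0.18) or mild 2 (0.175), where summed erythroid markers were 105 and 1204 CPM in severe and 3.4 and 35.3 CPM in mild.

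Over the 70 sums of library and type, the genes whose log2(CPM + 1) was most like that of each gene, out of 7522 with a mean of at least 10 CPM, were found by Pearson's r, given as a description since sums of 1 library share depth. They included Cd14 (0.869) and Ctsb (0.858) for Hmox1 and were Tbxas1 (0.926), C5ar1 (0.919) and Gpr84 (0.907) for Slc11a1. For Fth1 they were Cstb (0.864), Tpd52 (0.854) and Sod2 (0.814), and for Ftl1 Ninj1 (0.678), Cxcl2 (0.657) and Apobec1 (0.636). For Tf they were the myelin gene Mbp (0.87), Tmem63a (0.845) and Klk6 (0.806), and for Slc40a1 the neutrophil genes Lcn2 (0.771) and Lrg1 (0.735) and also Upp1 (0.740). For Cp they were Selenom (0.840), Pros1 (0.834) and Rai14 (0.824), and for Tfrc Cnksr3 (0.655), Cry2 (0.627) and RGD1308428 (0.621).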
